A study of Mus musculus with 5 samples.

Results

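The genes described here are 43 genes of the synapse, given as a list of symbols: 24 scaffold and signalling genes of the postsynaptic side, and 19 synaptic adhesion genes and pentraxins. All 43 symbols were present among the 23420 genes measured by RNA-Seq of the dentate gyrus (DG), and all 43 belonged to the 13550 genes taken as expressed, whose regularized log values averaged at least 5. The study asked how running and enrichment without running each alter the transcriptome of the adult mouse DG. Wild-type male CD1 mice, an outbred strain, aged 4 months per the labels, were kept for 4 weeks in one of several housings. LD mice lived alone with a locked disk that could not turn, and served as the controls. CE mice lived in company, with a locked disk and tunnels. RUN mice lived alone with a running disk. The L-RUN and H-RUN groups were drawn from the RUN mice, as those that ran the shortest and the longest distances. RNA of 8 mice was pooled for each of LD, CE and RUN, and RNA of 4 mice for each of L-RUN and H-RUN. All mice were anaesthetised and perfused before the whole DG was dissected, so every group shared these steps.

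Each group was therefore 1 library, and RUN held RNA of the same animals as L-RUN and H-RUN together. No difference below was tested against variation between mice, and no p-value is given. The comparisons with LD share the LD library, and company and tunnels cannot be told apart in CE. Because whole tissue was measured, fewer cells of a type and less RNA per cell cannot be told apart.

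An excitatory synapse sits mostly on a dendritic spine, a small actin-filled protrusion whose membrane carries a dense protein layer, the postsynaptic density. In it, MAGUK proteins such as PSD-95 hold glutamate receptors in place, SAPAP proteins link the MAGUKs to Shank proteins, and Shanks reach the actin skeleton. Calcium that enters through the receptors activates CaMKII, a kinase central to long-term potentiation. Across the cleft, neurexins and receptor tyrosine phosphatases of the axon bind neuroligins, LRRTM and SLITRK proteins of the dendrite. In the DG, these partners join perforant path axons to the granule neurons, and the neuronal pentraxins cluster AMPA receptors from outside the cell.

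The values are regularized logs of read counts on a log2 scale, a transform that pulls genes with few reads towards their own mean. A gene was called at a difference of at least 0.3 between libraries, which is 1.23-fold. A finer measure came from RUN, whose value should lie midway between its 2 constituent pools once the logs are undone. The scatter of RUN around that midpoint gave each gene a technical SD of a difference, ranging from 0.022 to 0.047 for the members with a median of 0.022, and differences past 3 such SD were also counted. This SD covers library preparation and counting, not the spread between mice. The residual of RUN from the midpoint lay between -0.065 for Nrxn3 and 0.030 for Camk2g among the members. For 37 of 43 members, RUN fell inside the span of its pools (86.0%), beside 58.3% of all expressed genes.

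The tissue label was checked against markers. All 8 granule neuron markers were expressed, and their summed level was 15.09 to 15.23 on the log2 scale over the 5 libraries. Such a sum gives most weight to the markers with the highest values. Gene by gene, the median difference of these markers from LD was -0.12 for L-RUN, -0.14 for CE, -0.05 for RUN and -0.04 for H-RUN. For L-RUN against H-RUN it was -0.13. Prox1 was called lower in L-RUN against LD (-0.41) and against H-RUN (-0.32), while C1ql2 was called higher in L-RUN against LD (0.37). Markers of the leptomeninges, the fibroblast layer around the brain, were expressed too (10 of 10). Their summed level was 11.62 in LD and 11.80 in CE, and 11.40 in H-RUN, 11.84 in RUN and 12.22 in L-RUN. The sum was thus highest in L-RUN and lowest in H-RUN. Gene by gene, the median difference from LD was 0.65 for L-RUN, 0.38 for RUN, 0.08 for CE and -0.03 for H-RUN. In H-RUN only Ogn (-0.68) and Dcn (-0.52) were called lower, so most of the list was near LD there. CA1 pyramidal markers, all 6 expressed, summed to 11.90 in LD and 12.05 in CE, and 11.80 in H-RUN, 11.69 in RUN and 11.55 in L-RUN, and oligodendrocyte markers, all 6 expressed, to 14.94, 14.84, 14.90, 14.81 and 14.72 in the same order. No marker on these lists was at 0. The lists for CA3 pyramidal neurons, interneurons, astrocytes, microglia and endothelium (6 genes each, all expressed) each spanned at most 0.20 over the libraries. Of the choroid plexus markers, 2 of 6 were expressed. This list summed to 9.44 in LD and 9.69 in CE, and 9.47 in H-RUN, 9.44 in RUN and 9.45 in L-RUN. In CE, Ttr was called higher (0.62) and Kl was near LD (0.03). The part of these markers in the differences below was not tested.

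L-RUN stood apart from the other libraries for these genes. It was the lowest of the 5 libraries for 31 of 43 members (72.1%), beside 28.1% of all expressed genes, and 35 of 43 members (81.4%) lay below LD in L-RUN, beside 50.7% of all expressed genes. Scaffold genes carried most of this, with L-RUN lowest for 20 of 24, while it was lowest for 11 of 19 adhesion genes. The median difference of L-RUN from LD was -0.16 for scaffold genes and -0.05 for adhesion genes, with a median of 0.00 over all expressed genes. H-RUN lay close to LD, with medians of -0.02 for scaffold genes and 0.01 for adhesion genes.

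**Figure D1:**
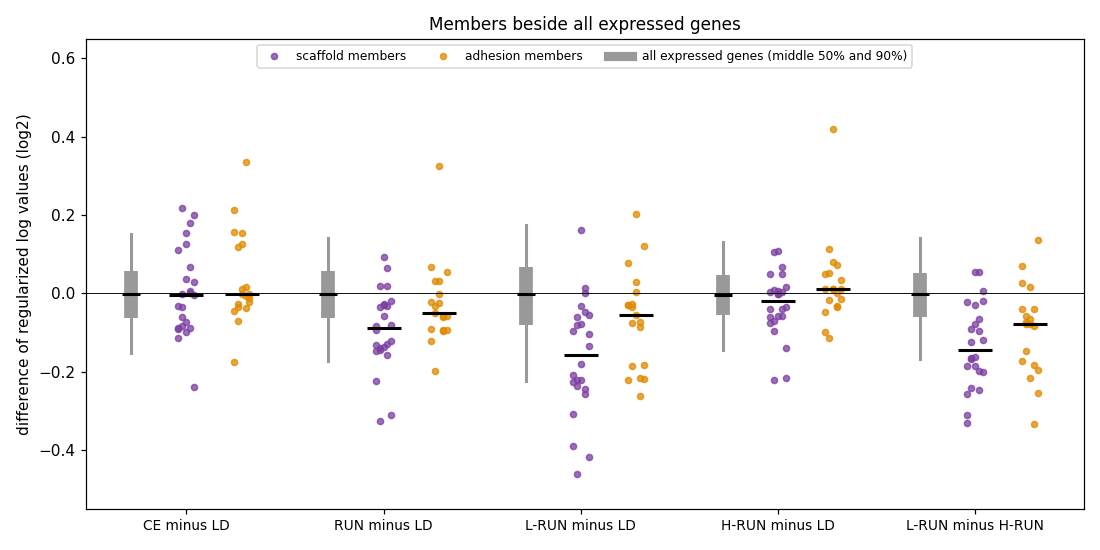
Difference between libraries of the regularized log value (vertical axis, log2) in the 5 comparisons, with 1 point for each scaffold or adhesion gene, a black bar at the median of each set, and grey bars for the middle 50% and 90% of all expressed genes. The scaffold points sit lowest in L-RUN minus LD, where their median was -0.16, and the CE minus LD points straddle 0.

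In L-RUN against LD, 4 members were called lower, Dlgap2, Ddn, Lzts1 and Camk2a, beside 2.33% of expressed genes, and none was called higher, beside 0.797%. All 4 belong to the scaffold genes. Past 3 technical SD, 25 of 43 members were lower, beside 19.5% of expressed genes, and 3 were higher (Camk2d, Nlgn2 and Nptx2), beside 13.2%. The lower members were 17 of 24 scaffold genes and 8 of 19 adhesion genes. Both counts fell when the trend on transcript length was removed, as given below. L-RUN was also the library with the highest leptomeningeal and lowest CA1 and oligodendrocyte marker levels.

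In RUN against LD, Ddn and Lzts1 were called lower, beside 0.952% of expressed genes, and Nptx2 was called higher, beside 0.362%. Past 3 technical SD, 18 members were lower, beside 14.4% of expressed genes, and 14 of the 18 were scaffold genes. Only Nlgn2 and Nptx2 were higher by that measure, beside 9.9% of expressed genes. The median difference was -0.09 for scaffold genes and -0.05 for adhesion genes. RUN shares its animals with L-RUN, so these counts are no second observation of the L-RUN pattern. The counts past 3 technical SD changed when the trend on transcript length was removed, as given below.

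In H-RUN against LD, Nptx2 was the 1 member called higher, beside 0.354% of expressed genes, and none was called lower, beside 0.472%. Past 3 technical SD, 7 members were lower (Dlg2, Shank2, Ddn, Lzts1, Iqsec1, Nlgn3 and Lrrtm4), beside 10.4% of expressed genes, and 4 were higher (Dlgap3, Camk2d, Slitrk1 and Nptx2), beside 8.39%. These are 16.3% and 9.30% of the members, and the share that was higher is near that of all expressed genes. Both shares changed when the trend on transcript length was removed, as given below.

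Set directly against H-RUN, L-RUN had 3 members called lower, Dlgap2, Camk2a and Nptxr, beside 0.974% of expressed genes, and none called higher, beside 0.561%. Past 3 technical SD, 25 members were lower in L-RUN, 17 scaffold and 8 adhesion genes, beside 13.7% of expressed genes, and 1, Lrrtm3, was higher, beside 8.44%. The median difference was -0.15 for scaffold genes and -0.08 for adhesion genes. Both groups lived alone with a running disk, and neither library is the LD library. The pools differed in markers as well. Gene by gene, the median of L-RUN minus H-RUN was 0.73 for leptomeningeal and -0.27 for CA1 pyramidal markers, and the part of this in the differences was not tested.

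In CE against LD, Nptxr was the 1 member called, higher, beside 0.332% of expressed genes, and none was called lower, beside 0.266%. Past 3 technical SD, members lay on both sides: 13 were higher, beside 10.7% of expressed genes, and 9 were lower, beside 13%. The higher ones were Dlg4, Dlgap3, Dlgap4, Shank1, Shank3, Begain, Camk2d, Nrxn2, Ptprs, Nlgn2, Lrrtm1, Slitrk1 and Nptxr. The lower ones were Dlg1, Dlg3, Dlgap2, Ddn, Synpo, Lzts1, Sipa1l1, Kalrn and Lrrtm4. The medians of the scaffold and the adhesion genes were both 0.00.

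**Figure D2:**
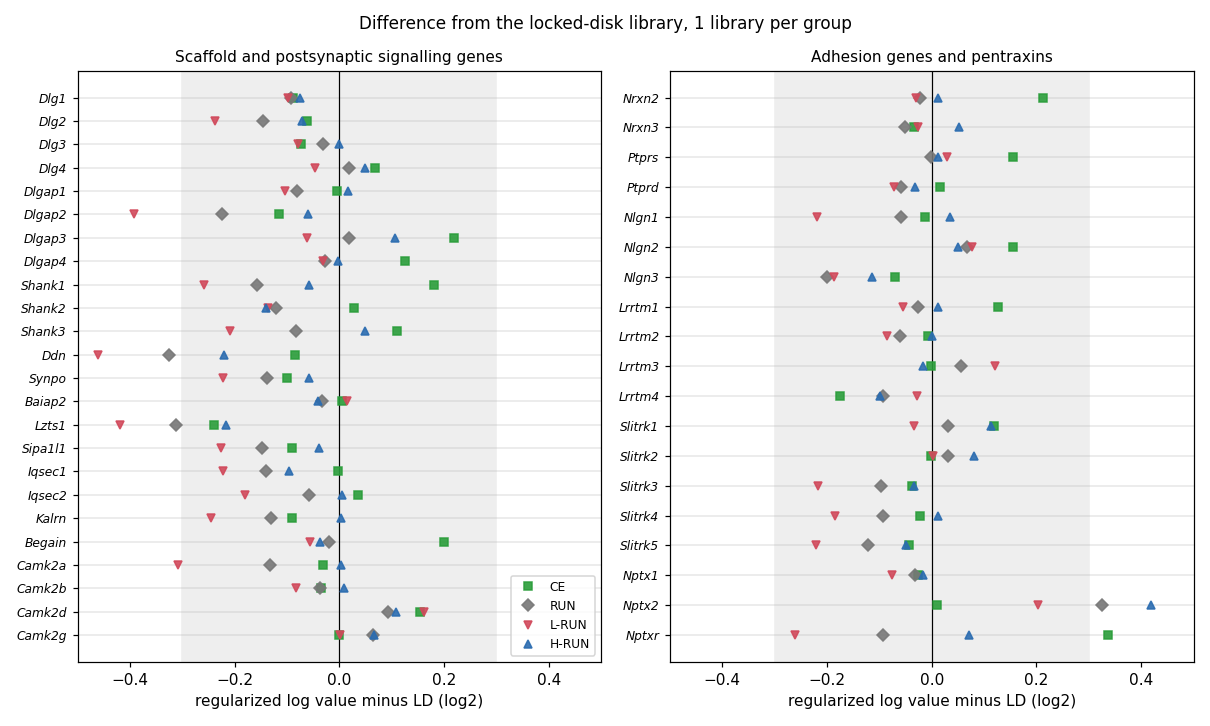
Difference of the enriched libraries from LD (horizontal axis, log2) for each of the 43 members, scaffold genes on the left and adhesion genes on the right, with 1 library per point and grey shading where a gene was not called. L-RUN triangles lie to the left of the H-RUN triangles for most scaffold genes, while the CE squares reach above 0.15 for genes such as Dlgap3, Shank1, Begain and Nrxn2.

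Among the MAGUKs, all 4 were lowest in L-RUN. Dlg2, which encodes PSD-93, had 13.20 in LD and 13.14 in CE, and 13.13 in H-RUN, 13.06 in RUN and 12.96 in L-RUN, a difference of -0.24 in L-RUN from LD. Dlg4, which encodes PSD-95, was nearly level, with 14.48 in LD and 14.55 in CE, and 14.53 in H-RUN, 14.50 in RUN and 14.43 in L-RUN. Its largest difference from LD, 0.07, was in CE. Dlg1 (SAP97) and Dlg3 (SAP102) were lower by 0.10 and 0.08 in L-RUN.

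The SAPAP genes, whose proteins bind the guanylate kinase domain of MAGUKs, were likewise all lowest in L-RUN. Dlgap2 (RefSeq position chr8:14095776-14853426, GRCm38) read 10.44 in LD and 10.33 in CE, and 10.38 in H-RUN, 10.22 in RUN and 10.05 in L-RUN. L-RUN was thus at 0.762 of the LD level, a difference of -0.39 with a technical SD of 0.036, and it was called against H-RUN as well (-0.33). H-RUN was within 0.06 of LD. Dlgap4 held 12.30 in LD and 12.43 in CE, and 12.30 in H-RUN, 12.27 in RUN and 12.27 in L-RUN, so that only CE stood away from the rest. Dlgap3, a gene prominent in the striatum, was also highest in CE (0.22 above LD), and Dlgap1 differed from LD by at most 0.10 in any library.

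The Shank genes encode the large scaffolds beneath the SAPAPs. Shank1 had 12.96 in LD and 13.14 in CE, and 12.90 in H-RUN, 12.80 in RUN and 12.70 in L-RUN, with CE above LD by 0.18 and L-RUN below it by 0.26. Shank3 had 12.70 in LD and 12.81 in CE, and 12.75 in H-RUN, 12.62 in RUN and 12.49 in L-RUN. For both, the CE library was the highest and the L-RUN library the lowest, while H-RUN lay below LD for Shank1 (-0.06) and above it for Shank3 (0.05). Shank2 was alike in the running libraries, with 11.92 in LD and 11.95 in CE, and 11.78 in H-RUN, 11.80 in RUN and 11.78 in L-RUN. Its H-RUN difference, -0.14, was as large as its L-RUN difference.

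Of the spine actin genes, Ddn and Lzts1 lay further below LD in L-RUN than any other member. Ddn (chr15:98803782-98807925) encodes dendrin, a protein of dendrites and spines whose mRNA is carried into dendrites. It read 16.00 in LD and 15.92 in CE, and 15.78 in H-RUN, 15.68 in RUN and 15.54 in L-RUN, so all 3 running libraries lay below both LD and CE. L-RUN was at 0.726 of the LD level (-0.46, technical SD 0.022), and RUN was at 0.798 (-0.33). Exons of a gene on the other strand, B130046B21Rik, overlap Ddn, and whether the counting used strand is not given in the sources used here.

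Lzts1 (chr8:69132659-69184249) encodes PSD-Zip70, a leucine zipper protein of spines. Its values were 8.56 in LD and 8.32 in CE, and 8.34 in H-RUN, 8.24 in RUN and 8.14 in L-RUN. LD was the highest by at least 0.22, so every enriched library lay below it, CE by 0.24 and L-RUN by 0.42, with a technical SD of 0.047. Synpo, which encodes synaptopodin of the spine apparatus, was lower by 0.22 in L-RUN and by 0.06 in H-RUN. Baiap2 (IRSp53), an actin regulator that binds Shank, was level, with 13.59 in LD and 13.60 in CE, and 13.55 in H-RUN, 13.56 in RUN and 13.61 in L-RUN, and was 1 of only 3 members with L-RUN as the highest library.

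The regulators of small GTPases, which set spine shape and receptor traffic, were alike: all 4 were lower in L-RUN past 3 technical SD, by 0.18 to 0.24. Kalrn, which encodes the Rac exchange factor kalirin, had 14.42 in LD and 14.33 in CE, and 14.42 in H-RUN, 14.29 in RUN and 14.17 in L-RUN. Its L-RUN and H-RUN values thus differed by 0.25, with H-RUN level with LD. Iqsec2, an Arf exchange factor, had 12.74 in LD and 12.78 in CE, and 12.75 in H-RUN, 12.68 in RUN and 12.56 in L-RUN. Iqsec1 and the Rap regulator Sipa1l1 (SPAR) were lower in L-RUN by 0.22 and 0.23. Begain, which binds PSD-95, differed in CE instead, with 11.35 in LD and 11.55 in CE, and 11.32 in H-RUN, 11.33 in RUN and 11.30 in L-RUN.

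The CaMKII subunits did not share a direction. Camk2a, whose alpha subunit dominates in forebrain excitatory neurons and whose mRNA also travels into dendrites, had 16.81 in LD and 16.78 in CE, and 16.81 in H-RUN, 16.67 in RUN and 16.50 in L-RUN. L-RUN was the lowest, at 0.808 of the LD level (-0.31) and 0.806 of the H-RUN level (-0.31), RUN was lower than LD as well (-0.13, technical SD 0.022), and LD and H-RUN were equal to 2 decimals. Camk2b, which encodes the actin-binding beta subunit, was lower by 0.08 in L-RUN. Camk2d was lowest in LD, and L-RUN was 0.16 above it. Camk2g, the gamma subunit gene, had 12.74 in LD and 12.74 in CE, and 12.81 in H-RUN, 12.81 in RUN and 12.75 in L-RUN.

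**Figure D3:**
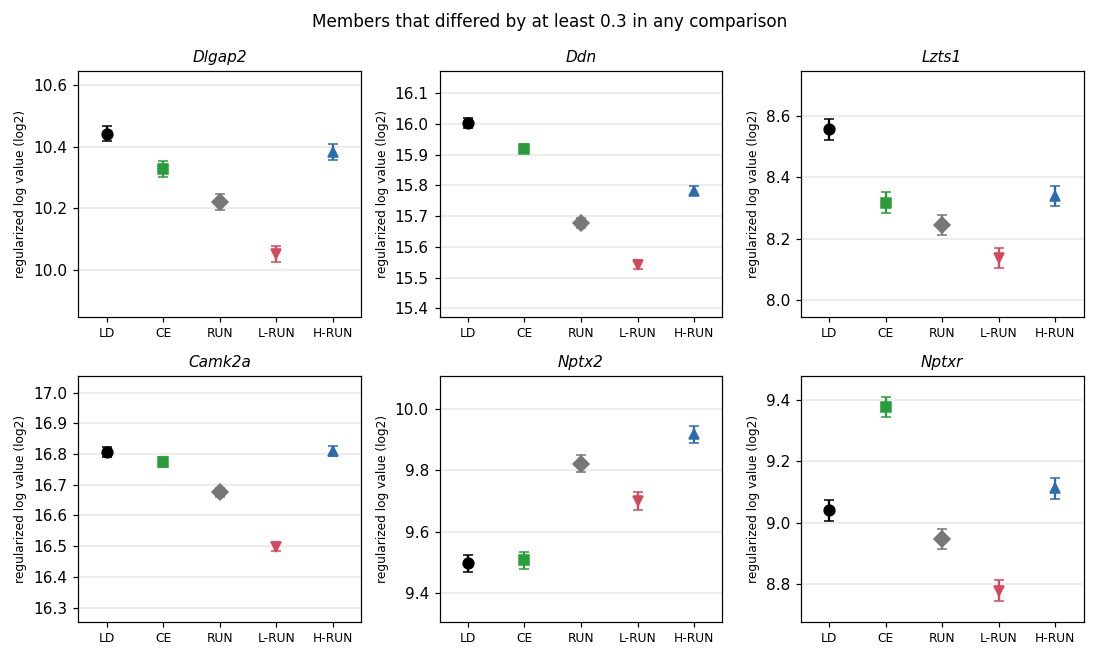
Regularized log value (vertical axis, log2, not starting at 0) in each of the 5 libraries for the 6 members that differed by at least 0.3 in any comparison, with bars of 1 technical SD of a single library, which do not cover the spread between mice. Dlgap2, Ddn, Lzts1, Camk2a and Nptxr were lowest in L-RUN, and Nptx2 was lowest in LD and highest in H-RUN.

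Among the presynaptic adhesion genes, differences in the running libraries were small, at most 0.07 from LD in size. Ptprd, a receptor phosphatase that binds SLITRK proteins, read 12.17 in LD and 12.19 in CE, and 12.14 in H-RUN, 12.11 in RUN and 12.10 in L-RUN. Nrxn3, which encodes a neurexin, had 11.84 in LD and 11.81 in CE, and 11.90 in H-RUN, 11.79 in RUN and 11.82 in L-RUN. In its case RUN lay outside the span of L-RUN and H-RUN, and the departure of RUN from their midpoint (-0.065) exceeded each difference of these libraries from LD. Nrxn2 and Ptprs were higher in CE by 0.21 and 0.15 and within 0.03 of LD in each running library.

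The neuroligins, the dendritic partners of neurexins, split. Nlgn1, found at excitatory synapses, had 10.93 in LD and 10.91 in CE, and 10.96 in H-RUN, 10.87 in RUN and 10.71 in L-RUN, and only L-RUN was apart (-0.22 from LD, -0.25 from H-RUN). Nlgn2, found at inhibitory synapses, had 12.88 in LD and 13.04 in CE, and 12.93 in H-RUN, 12.95 in RUN and 12.96 in L-RUN, so that LD was the lowest library. Nlgn3, present at both kinds of synapse, was lower by 0.20 in RUN, by 0.19 in L-RUN and by 0.11 in H-RUN.

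Of the LRRTM genes, whose proteins bind neurexins and heparan sulphate, none was past 3 technical SD lower in L-RUN except Lrrtm2 (-0.08). Lrrtm3 went the other way, with 9.33 in LD and 9.33 in CE, and 9.31 in H-RUN, 9.38 in RUN and 9.45 in L-RUN. Lrrtm4, which is known for its role at granule neuron synapses, had 11.27 in LD and 11.09 in CE, and 11.17 in H-RUN, 11.18 in RUN and 11.24 in L-RUN, and was lowest in CE (-0.18). Lrrtm1 was higher in CE by 0.13 and within 0.05 of LD elsewhere.

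The SLITRK genes encode partners of the receptor phosphatases. Slitrk3, Slitrk4 and Slitrk5 were lower in L-RUN by 0.22, 0.18 and 0.22 and lay within 0.05 of LD in H-RUN. Slitrk5, for example, had 11.52 in LD and 11.47 in CE, and 11.47 in H-RUN, 11.40 in RUN and 11.30 in L-RUN. Slitrk2 did not share this, with 11.12 in LD and 11.12 in CE, and 11.20 in H-RUN, 11.15 in RUN and 11.12 in L-RUN. Slitrk1 was higher by 0.12 in CE and by 0.11 in H-RUN and was below LD in L-RUN alone (-0.03).

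The pentraxins differed most among themselves. Nptx2 (chr5:144545887-144557478) encodes NARP, the pentraxin known as an activity-induced gene. Its values were 9.50 in LD and 9.51 in CE, and 9.92 in H-RUN, 9.82 in RUN and 9.70 in L-RUN. All 3 running libraries were above both LD and CE, H-RUN at 1.34 times the LD level (0.42, technical SD 0.040) and L-RUN at 1.15 times (0.20), and CE was level with LD. Nptx1, the constitutive family member, was nearly flat, with 14.93 in LD and 14.91 in CE, and 14.92 in H-RUN, 14.90 in RUN and 14.86 in L-RUN.

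Nptxr (chr15:79786351-79804709) encodes the membrane-anchored pentraxin receptor. It read 9.04 in LD and 9.38 in CE, and 9.11 in H-RUN, 8.95 in RUN and 8.78 in L-RUN, with CE the highest (0.34) and L-RUN the lowest (-0.26). It was the member with the widest span over the libraries, 0.60. Nptxr shares exons with Npcd on the same strand, and the counting could have split or dropped reads between them.

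Levels can be compared between genes only per length, here as the mean regularized log value over the libraries less the log2 of the longest transcript in kilobases. On that scale Camk2a was the highest member at 14.40, followed by Ddn at 13.88 and Camk2b at 13.70, with Nptx1, the highest of the adhesion genes and pentraxins, at 12.52. The lowest were Slitrk4 at 5.75, Lzts1 at 5.99 and Nptxr at 6.73. Called members thus stood at both ends of the range.

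Promoters in RefSeq (GRCm38.p6) were used for 27 of the 43 members, with 49 promoters of 300 bases around the transcription start. Among them, 3 are shown because their genes differ in pattern: Nlgn2, which was above LD in every other library, and Shank3 and Kalrn, which were lowest in L-RUN. They are printed 5′ to 3′ on the gene's strand, with the letters TGACG in capitals where found on either strand (as CGTCA on the other), and they lie at chr11:69837735-69838034 (minus strand), chr15:89499358-89499657 (plus strand) and chr16:34513978-34514277 (minus strand).
Nlgn2: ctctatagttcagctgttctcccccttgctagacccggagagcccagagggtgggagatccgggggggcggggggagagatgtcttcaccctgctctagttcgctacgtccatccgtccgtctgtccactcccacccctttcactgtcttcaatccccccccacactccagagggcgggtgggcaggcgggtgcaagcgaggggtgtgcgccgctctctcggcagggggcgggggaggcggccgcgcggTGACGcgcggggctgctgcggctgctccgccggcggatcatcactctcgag
Shank3: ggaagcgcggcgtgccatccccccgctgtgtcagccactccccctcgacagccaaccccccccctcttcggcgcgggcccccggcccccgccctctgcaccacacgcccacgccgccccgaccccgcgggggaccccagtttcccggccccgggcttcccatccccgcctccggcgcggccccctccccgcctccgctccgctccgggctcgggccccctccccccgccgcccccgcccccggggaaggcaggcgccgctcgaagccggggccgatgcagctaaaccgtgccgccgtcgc
Kalrn: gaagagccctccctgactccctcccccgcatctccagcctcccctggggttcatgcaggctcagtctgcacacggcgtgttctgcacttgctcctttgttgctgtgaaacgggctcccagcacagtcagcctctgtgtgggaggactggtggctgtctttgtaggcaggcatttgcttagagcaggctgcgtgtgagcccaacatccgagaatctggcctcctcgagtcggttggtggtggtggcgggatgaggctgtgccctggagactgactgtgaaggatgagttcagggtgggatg

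Of the 3 windows, that of Nlgn2 alone holds TGACG, the core of the cAMP response element, and it does so across its start site. This window covers the outer end of its gene (chr11:69823123-69837784). The Shank3 and Kalrn windows are at starts inside their genes (chr15:89493013-89560261 and chr16:33969073-34573277), so the outer ends of those genes were not read. GC content of the windows is 68.7% for Nlgn2, 81.0% for Shank3 and 60.3% for Kalrn, beside a median of 59.3% over member promoters and 52.7% over all promoters. The full element TGACGTCA, which reads the same on both strands and contains TGACG, was in 2 of 49 member promoters (4.08%; Ptprs and Slitrk2) and in 588 of 32851 promoters of all genes (1.79%). TGACG or CGTCA was in 6 of 49 (12.2%) beside 20.8%, in Dlg3, Dlg4, Dlgap4, Nlgn2, Ptprs and Slitrk2. Of these genes, Dlg3, Dlg4 and Dlgap4 were lowest in L-RUN, as Shank3 and Kalrn were, and the others were lowest in other libraries. TATAAA or TTTATA was in 5 of 49 (10.2%) beside 13.6%. A match is a description of letters in a window and no measure of binding. Dlgap2, Ddn, Lzts1, Camk2a, Nptx2 and Nptxr were not among the 27 genes. Member promoters on chromosome 18, where Camk2a, Synpo and Lrrtm2 lie, were left out by choice. The promoters of all genes were not filtered in this way.

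Other genes of these functions were read from a list of scaffold and adhesion genes outside the 43, of which 66 were expressed. In L-RUN against LD, 1 was called higher, beside 0.797% of expressed genes, and 4 lower, beside 2.33%. Past 3 technical SD, 5 were higher, beside 13.2%, and 29 lower, beside 19.5%, and the median was -0.05. Homer2, which links Shanks to metabotropic glutamate receptors, had 10.19 in LD, 9.93 in H-RUN, 9.84 in RUN and 9.71 in L-RUN, with CE at -0.19 from LD, and was called lower in RUN (-0.35) and L-RUN (-0.48). Elfn2, a leucine-rich repeat protein that contacts metabotropic glutamate receptors, had 11.42 in LD and 11.42 in CE, and 11.07 in H-RUN, 11.01 in RUN and 10.91 in L-RUN, so all 3 running libraries were called lower (-0.35 in H-RUN, -0.41 in RUN and -0.50 in L-RUN). These running libraries lay below LD and CE, as they did for Ddn.

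Cnksr2, a scaffold of Ras signalling at the density, had 12.61 in LD and 12.52 in CE, and 12.61 in H-RUN, 12.43 in RUN and 12.24 in L-RUN. Ncam2, an adhesion molecule of the immunoglobulin family, had 10.54 in LD and 10.46 in CE, and 10.53 in H-RUN, 10.39 in RUN and 10.16 in L-RUN. Both were called lower in L-RUN against LD (-0.37 and -0.38) and against H-RUN (-0.37 for each), the order seen for Camk2a and Dlgap2. Lphn3, a latrophilin, was called only against H-RUN (-0.31), with 10.23 in LD and 10.23 in CE, and 10.27 in H-RUN, 10.13 in RUN and 9.95 in L-RUN.

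C1ql2, a secreted organizer of mossy fibre synapses and also 1 of the 8 granule neuron markers, went the other way, with 11.69 in LD and 11.86 in CE, and 12.10 in H-RUN, 12.06 in RUN and 12.07 in L-RUN. It was called higher in RUN (0.37), L-RUN (0.37) and H-RUN (0.40), as Nptx2 was in RUN and H-RUN. Cadm2, a SynCAM family member, had 13.64 in LD and 13.32 in CE, and 13.68 in H-RUN, 13.57 in RUN and 13.52 in L-RUN, and was the 1 gene of the list called in CE (-0.32), beside 0.332% of expressed genes higher and 0.266% lower. In RUN the list had 1 called higher, beside 0.362%, and 2 lower, beside 0.952%. In H-RUN it had 1 higher, beside 0.354%, and 1 lower, beside 0.472%. In L-RUN against H-RUN it had 0 higher, beside 0.561%, and 3 lower, beside 0.974%.

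Transcript length moved with the L-RUN difference over all expressed genes, and less steeply with the other differences from LD. From the shortest to the longest quintile, the median went from 0.07 to -0.10 in L-RUN and from 0.06 to -0.07 in RUN. It went from 0.04 to -0.05 in both CE and H-RUN. The members were long, with a median longest transcript of 5524 nucleotides beside 3518 for expressed genes. In the longest quintile of expressed genes (5447 nucleotides and over), which held 22 members, the median difference of L-RUN from LD was -0.10 over all genes and -0.12 over the members. In the next quintile, with 14 members, these medians were -0.04 and -0.15. With the length trend of all expressed genes removed, the median of the scaffold genes in L-RUN was -0.08, with 12 of 24 lower past 3 technical SD beside 13.6% of expressed genes. That of the adhesion genes was 0.00, with 3 of 19 lower (15.8%) by the same measure. More adhesion genes were then higher, 5 of 19 (26.3%), beside 12.2% of expressed genes. Ddn (-0.45), Lzts1 (-0.37) and Dlgap2 (-0.36) stayed called, while Camk2a came to -0.26, under the threshold. Against H-RUN, the scaffold median after removal was -0.09. In RUN against LD, 8 of 43 members (18.6%) were then lower past 3 technical SD, 6 of them scaffold genes, beside 9.11% of expressed genes. Higher by that measure in RUN were 6 members (14.0%), beside 8.54%. In H-RUN against LD, 12 of 43 members (27.9%) were then higher past 3 technical SD, beside 8.28% of expressed genes. Lower by that measure were 2 members (4.65%), beside 7.26%.

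GC content of the transcript moved with the CE difference, and less steeply with the other differences from LD. From the lowest to the highest quintile of GC content, the median difference of CE from LD over all expressed genes went from -0.07 through -0.04, -0.01 and 0.03 to 0.07. The 13 members higher in CE past 3 technical SD had a median GC content of 60.3%, beside 52.6% for the 9 lower ones and for all members. In the highest GC quintile, the 14 members had a median CE difference of 0.14. With length and GC trends both removed, Nptxr in CE was at 0.29, under the threshold, and Nptx2 was at 0.39 in H-RUN and 0.28 in RUN. The part of RNA quality or library preparation in these trends was not tested.

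**Figure D4:**
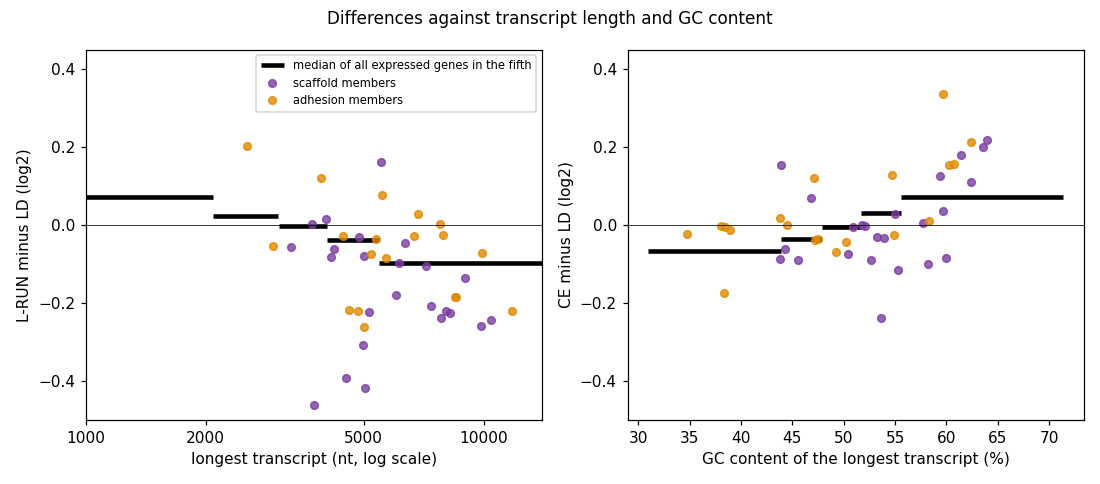
Left, difference of L-RUN from LD (log2) against the longest transcript in nucleotides (log axis, ends not shown); right, difference of CE from LD (log2) against GC content in percent; points are members and black bars are medians of all expressed genes in each quintile. The bars go down with length on the left, to -0.10, and up with GC content on the right, to 0.07.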

How the data were processed

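RNA of the DG was sequenced as polyA TruSeq libraries, 1 per group. Per the study's methods and the submitters' processing notes, the authors used CASAVA 1.8.2, trimmed adapters, mapped reads to mm10 with TopHat2 2.0.10, used HTSeq for read counts per RefSeq gene and normalized all 5 libraries at once with DESeq2 1.10.1. The deposited values are log2 regularized logs, with 1 value for each gene in each library. The transform shrinks differences of genes with few reads, and it was not undone. No counts were analysed here, so the depth of each library is unknown and no counting interval is given.

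Differences between libraries were computed in Python 3.11.15 with pandas 2.3.3, numpy 2.4.6, statsmodels 0.14.6 and matplotlib 3.10.9. Genes with a mean below 5 were set aside, and the threshold of 0.3 is on the same scale as that of the authors. Between groups there is no test, because each has 1 library. The technical SD was the scaled median absolute deviation of the linear-mixture residual of RUN, per decile of level. A residual has 1.5 times and a difference 2 times the variance of 1 library, if libraries vary alike, and the SD was scaled for this. If L-RUN and H-RUN were made from the same extracts, this SD leaves out extraction. Trends on length and GC content were lowess fits (fraction 0.3) over all expressed genes, with the longest GENCODE transcript of each gene on GRCm38. Scripts were tested on simulated data.

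The members and lists were chosen with earlier results of these data known. Values in all libraries are given for each member called at 0.3 in any comparison and for those with the largest and smallest L-RUN difference of each subgroup, of the other synaptic genes for those called, and for markers by list; families of postsynaptic adhesion genes were each treated as a subgroup. Protein sequences were not used here.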

Additional observations from a re-analysis of the deposited data

Results flagged for a closer look

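For Nptxr, Shank1 and Shank3, CE lay above LD and L-RUN lay below it, each by more than 3 technical SD, and for Shank1 and Shank3 the same held for RUN. Each is a comparison of single libraries that share LD, and the difference between the effects was not tested. Nptxr was the widest, with CE 0.34 above LD and L-RUN at -0.26, a gap of 0.60. Shank1 was at 0.18 in CE and -0.26 in L-RUN, a gap of 0.44, and its gap between CE and RUN was 0.34. Shank3 was at 0.11 in CE and -0.21 in L-RUN, a gap of 0.32, and its gap between CE and RUN was 0.19. H-RUN was not below LD past 3 technical SD for any of them, at 0.07 for Nptxr, -0.06 for Shank1 and 0.05 for Shank3. L-RUN and RUN share animals, so the gaps of each gene are not separate observations.

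All 3 transcripts have a GC content above the median of the expressed genes (59.6% for Nptxr, 61.4% for Shank1 and 62.4% for Shank3, beside 49.8%). With the length trend removed, CE and L-RUN were at 0.36 and -0.21 for Nptxr, 0.25 and -0.13 for Shank1, and 0.16 and -0.11 for Shank3. With length and GC trends both removed, they were at 0.29 and -0.24, 0.16 and -0.17, and 0.07 and -0.15 in the same order of genes, so the opposite directions remained in each case with smaller L-RUN differences. In RUN, Shank1 was then at -0.10 and Shank3 at -0.05, and with length alone removed they were at -0.06 and -0.01.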

How the results depend on the processing

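No paired analysis was possible because each group is 1 library and the labels carry no replicate numbers, and for the same reason no library could be left out of a group. Centring on the median, a minimum of 7, no minimum, and a mixture of log values left every count within 1.5 times and every median within the technical spread. At a threshold of 0.4, the members called came to 2 in L-RUN, both lower, beside 1.08% of expressed genes lower. They came to 0 in CE, in RUN and in L-RUN against H-RUN. The shares of expressed genes called higher and lower at 0.4 were also small. They were 0.118% and 0.0664% in CE, 0.133% and 0.251% in RUN, and 0.273% and 0.325% in L-RUN against H-RUN. Quantile normalization gave scaffold medians of -0.060 in RUN, -0.121 in L-RUN and -0.117 in L-RUN against H-RUN, and an adhesion median of -0.022 in L-RUN. Against the mean of LD and CE, 1 member was called in RUN, higher, beside 0.258% of expressed genes higher and 0.362% lower. In L-RUN, 4 were called lower, beside 1.54% of expressed genes: Dlgap2 (-0.33), Ddn (-0.42), Nptxr (-0.43) and Shank1. Nptxr and Shank1 were not called there against LD alone. Adhesion medians with this baseline were -0.0818 for L-RUN and -0.0147 for H-RUN. With the length trend removed, scaffold and adhesion medians were -0.0271 and 0.0283 for RUN, -0.0839 and 0.00483 for L-RUN, 0.0183 and 0.0543 for H-RUN, and -0.0946 and -0.0296 for L-RUN against H-RUN, and the adhesion median in CE was 0.036. With length and GC trends removed, an alternative chosen after seeing the data, they were -0.0444 and 0.0105, -0.0994 and 0.0043, 0.00407 and 0.0418, and -0.094 and -0.0361 in that order, and the adhesion median in CE was 0.0903. In CE, 0 members were then called, beside 0.283% of expressed genes higher and 0.0966% lower. In RUN, 1 was called, lower, beside 0.364% higher and 0.468% lower. Besides the 0.4 threshold, these calls came under 0.3. Camk2a in L-RUN did so with length removed (-0.26), with length and GC removed (-0.26), under quantile normalization (-0.25) and against the mean of LD and CE (-0.29), and in L-RUN against H-RUN under the first 3 of these (-0.28, -0.28 and -0.25). Ddn in RUN did so under quantile normalization (-0.25) and against the mean of LD and CE (-0.28). Lzts1 did so against the mean of LD and CE in RUN (-0.19) and L-RUN (-0.2996), and in RUN with length removed (-0.27) and with length and GC removed (-0.28). With length and GC removed, so did Nptxr in CE (0.29) and Nptx2 in RUN (0.28). The cause was not tested. Quantile normalization sets the value of a gene by its rank alone, and it put Camk2a at 0 from LD in CE, RUN and H-RUN. The -0.25 of Camk2a in L-RUN under that setting is thus a change of rank and no separate check of its call. Depth is unknown, so its limits on low genes such as Lzts1 and Nptxr cannot be given beyond their technical SD.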
